A study of Saccharomyces cerevisiae with 23 samples.

Results

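Splicing and RNA level were followed for 7 yeast genes, each with 1 intron, listed under mitochondrial protein import, DNA maintenance and translation. The genes were ERV1 (YGR029W), CMC2 (YBL059C-A), CMC4 (YMR194C-B), RIM1 (YCR028C-A), YML6 (YML025C), MRPL44 (YMR225C) and IAI11 (YBL059W). They were taken by gene name from the 274 genes and 284 introns measured in Saccharomyces cerevisiae by multiplexed primer extension sequencing, in which reverse transcription starts from a primer beside each chosen intron, so that a read shows whether that intron is still present. The 23 libraries came from strains of the BY background grown in minimal medium with 2% glucose, and collected either at 48 h, in stationary phase, or in log phase. The groups were mud1D at 48 h (3 libraries), mud1D in log phase (3), nam8D at 48 h (3), nam8D in log phase (3), wild-type set WTa at 48 h (3), WTa in log phase (2), wild-type set WTb at 48 h (3) and WTb in log phase (3). WTa libraries listed 271 to 273 introns each, against 278 to 284 in WTb and 277 to 283 in the mutants. The labels do not say how WTa and WTb differ. They also give strain names, which vary within a group and recur across genotypes. Those names were used only as a term in an alternative fit. Library names in the mud1D table read mud1S, while the genotype label reads mud1D, which is used here. The labels do not state if replicates came from different cultures, and p-values measure only how far libraries spread within their group, which may be technical. WTa and WTb were separate groups in the fits, and wild type was their mean. A difference between these sets therefore does not enter the p-values of wild type or of comparisons with it.

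Most mitochondrial proteins are made in the cytosol and imported. Small proteins with twin CX9C motifs are trapped in the intermembrane space when the receptor Mia40 oxidises their cysteines, and Erv1 reoxidises Mia40. CMC2 and CMC4 encode proteins of that twin CX9C kind, and Cmc2 is known for a role in cytochrome c oxidase assembly. RIM1 encodes the protein that binds single-stranded mitochondrial DNA and is needed to keep the mitochondrial genome, while YML6 and MRPL44 encode proteins of the large subunit of the mitochondrial ribosome. No role in import, DNA maintenance or translation is claimed here for IAI11. MUD1 and NAM8 encode RNA-binding components of the U1 small nuclear ribonucleoprotein, which recognises the 5' end of introns. Budding yeast in glucose ferments first and turns to respiration once the glucose is used up.

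The intron sequences are shown because their first 6 bases and branch sequence differ from gene to gene. They are printed from RefSeq build R64, 5' to 3' on the coding strand. Capitals mark the first 6 bases, the branch sequence (TACTAAC, or the last 7 bases that differ from it at 1 position) and the last 3 bases.
ERV1, intron at chrVII:543639-543721, plus strand: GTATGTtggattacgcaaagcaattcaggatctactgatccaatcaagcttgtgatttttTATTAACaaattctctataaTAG
CMC2, intron at chrII:110421-110505, minus strand: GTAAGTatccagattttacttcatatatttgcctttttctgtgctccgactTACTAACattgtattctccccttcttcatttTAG
CMC4, intron at chrXIII:652776-652847, minus strand: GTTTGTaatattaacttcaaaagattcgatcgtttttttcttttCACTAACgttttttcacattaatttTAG
RIM1, intron at chrIII:173116-173198, minus strand: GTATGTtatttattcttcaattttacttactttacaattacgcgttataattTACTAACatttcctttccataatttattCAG
YML6, intron at chrXIII:225240-225338, minus strand: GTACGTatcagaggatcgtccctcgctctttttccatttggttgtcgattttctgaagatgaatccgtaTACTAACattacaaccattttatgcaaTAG
MRPL44, intron at chrXIII:721199-721345, minus strand: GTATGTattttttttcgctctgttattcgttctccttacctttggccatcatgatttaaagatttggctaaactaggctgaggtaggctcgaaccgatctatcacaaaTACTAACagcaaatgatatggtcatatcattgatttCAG
IAI11, intron at chrII:110880-110948, plus strand: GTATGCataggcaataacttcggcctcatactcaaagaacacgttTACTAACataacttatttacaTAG

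The introns were 69 to 147 bases long, against a median of 143 bases in the 244 annotated introns of the genes tested. ERV1, RIM1 and MRPL44 began with GTATGT, which began 78.7% of those 244 introns. The other starts were GTAAGT in CMC2 (4.51% of the 244), GTACGT in YML6 (7.38%), GTATGC in IAI11 (2.46%) and GTTTGT in CMC4, which was the 1 intron of the 244 with that start. TACTAAC was found in 5 of the 7 and in 83.2% of the 244. ERV1 and CMC4 held no TACTAAC. ERV1 held TATTAAC, and CMC4 held both CACTAAC, in capitals above, and TATTAAC near its start. TATTAAC without TACTAAC was found in 1.64% of the 244 and CACTAAC without TACTAAC in 3.28%, and CMC4 is in both counts. These counts use the coding strand only, and a letter match is not a measured site. Premature shares by sequence class were taken only from genes with 1 annotated and 1 tested intron. Among these in wild type in log phase, the 146 introns with GTATGT and TACTAAC had a median premature share of 3.37%, and the 41 with another start and TACTAAC had 3.16%. The 28 with GTATGT and no TACTAAC had a median of 18.0%, and the 8 with neither had 36.6%. CMC4 was among those 8, with a mean share of 52.1%. ERV1 was among the 28, with 6.26%, below their median. CMC2, IAI11 and YML6 were among the 41, with 43.5%, 23.9% and 7.09%, all above their median. RIM1 and MRPL44 were among the 146, with 6.01% and 10.5%. Whether these sequences bear on the shares was not tested. CMC2 and IAI11 are divergent neighbours on chromosome II, with 54 bases between their coding starts.

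Library totals ran from 3343811 to 12068685 counts, and each of the 7 introns was listed in all 23 libraries and entered the tests, which covered 265 introns. Counts per library for the 7 genes ran from 385 for IAI11 to 34192 for CMC4, and the 95% Wilson interval of a single share was at most 4.67 percentage points to either side. These intervals cover counting error only. MUD1, which holds an intron of its own, was listed in 1 of 6 mud1D libraries, with 1 mature count, and had 1328 to 5543 mature counts in each of the others. NAM8 was not among the introns used here, so the nam8D label could not be checked. The premature share is the percentage of an intron's counts that still held the intron, and tests were made on the log2 ratio of premature to mature counts, whose changes are given with their standard error. The median share over all 265 introns was itself higher at 48 h, with 8.14% to 9.72% in the 6 mutant libraries and 4.22% to 6.30% in the 6 wild-type libraries, against 4.12% to 6.13% in mutant and 4.06% to 4.35% in wild-type libraries in log phase. Values centred on the median intron of each library are therefore given where they turn a direction or change a call.

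Splicing at 48 h was first set against log phase in each genotype. In mud1D, 1 was called higher and 4 lower at 48 h than in log phase (background 64.9% of introns higher and 15.5% lower), and their median log2 change was -0.55, against 1.08 over all introns. In nam8D, 3 were higher and 3 lower (background 70.9% and 9.81%), with medians of 0.12 for the 7 and 1.10 for all. In wild type 0 were higher and 5 lower (background 51.7% and 28.7%), with medians of -0.60 and 0.29. The list was not tested as a set. After centring, 0 were higher and 7 lower in mud1D (50.2% and 36.6% of all introns), 0 and 6 in nam8D (38.5% and 40.4%) and 0 and 5 in wild type (42.6% and 38.9%). With WTb alone as wild type 1 was called lower, IAI11, and with WTa alone 5 were. The median change of all introns was 0.46 with WTb alone and 0.15 with WTa alone. The share of all introns called was not counted for these fits, so the counts have no background beside them.

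**Figure D1:**
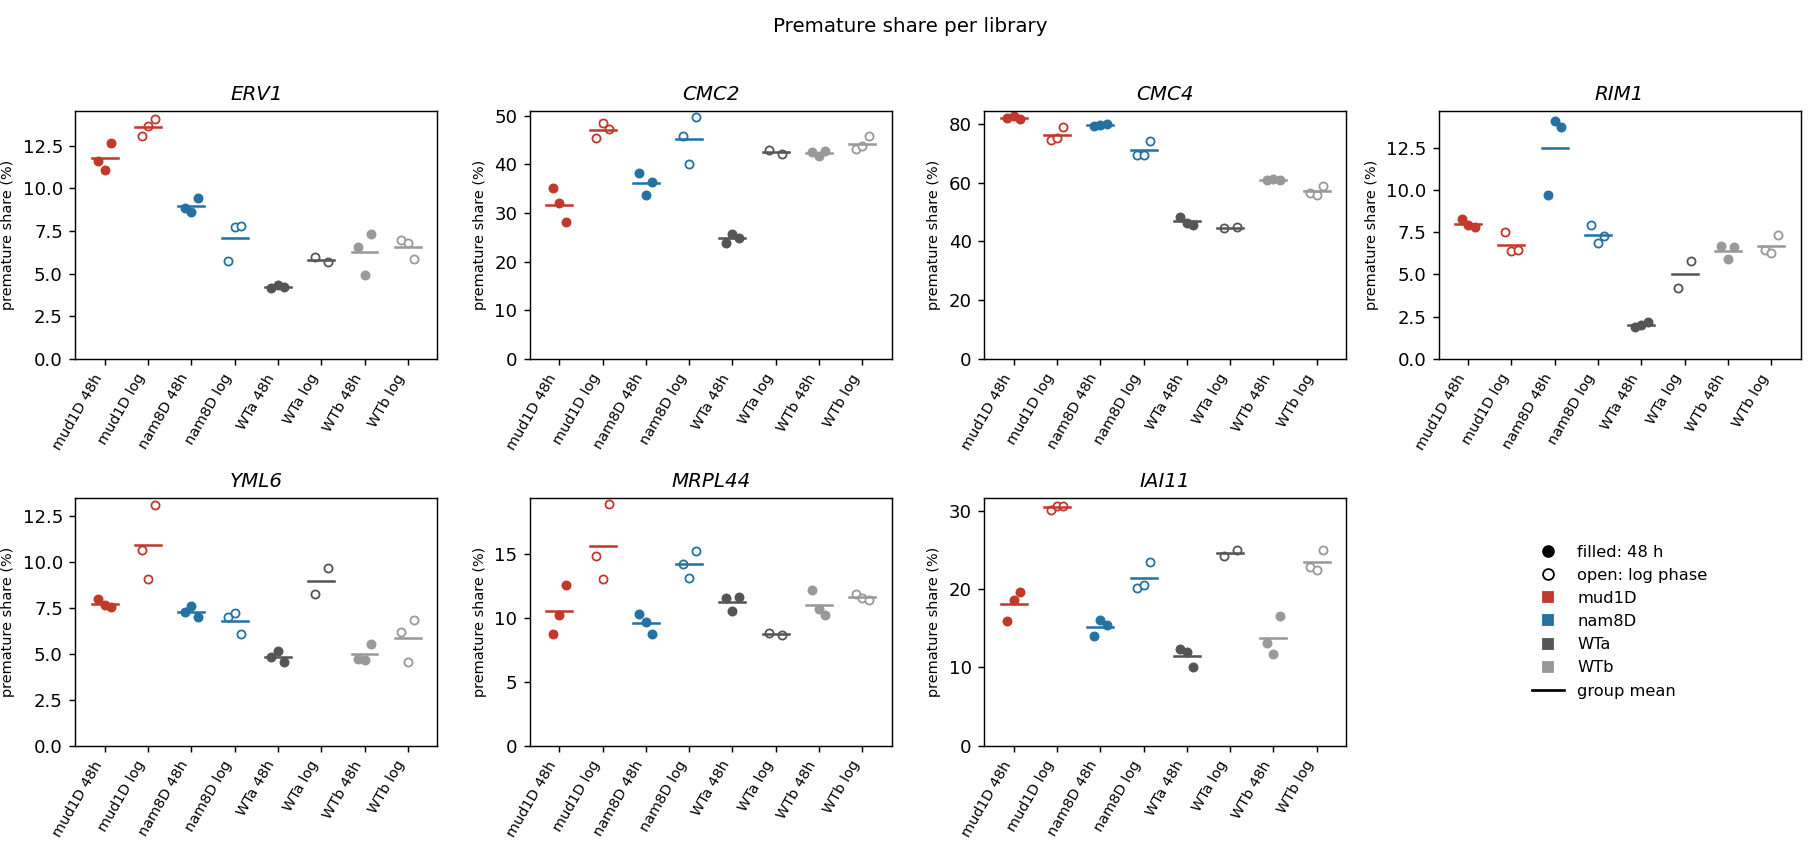
Premature share (%) of each intron in each of the 23 libraries, with 1 panel per gene and a separate linear axis from 0. Points are libraries (filled at 48 h, open in log phase), bars are group means; CMC4 is higher in every mutant library than in any wild-type library, and CMC2 and RIM1 at 48 h are lower in WTa than in WTb.

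CMC4 had the highest premature share of the 7 genes in every group. In mud1D it was 81.8%, 82.6% and 81.7% at 48 h, against 74.4%, 75.0% and 78.9% in log phase. In nam8D it was 79.2%, 79.6% and 80.1% at 48 h, against 69.3%, 69.5% and 74.2% in log phase. The 48 h libraries of each mutant lay above its log-phase libraries. In WTa the shares were 48.4%, 46.3% and 45.5% at 48 h, against 44.4% and 44.9% in log phase, and in WTb 61.0%, 61.2% and 60.8% at 48 h, against 56.5%, 55.8% and 58.9% in log phase. No wild-type library reached the lowest mutant library. Within each set the 48 h libraries were above the log-phase ones, by a few points.

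Against wild type, the log2 ratio of CMC4 was 1.96 ± 0.10 higher in mud1D at 48 h (adjusted p = 2.6e-18) and 1.62 ± 0.11 higher in log phase (adjusted p = 2.8e-14). In nam8D it was 1.74 ± 0.10 higher at 48 h (adjusted p = 4.2e-17) and 1.24 ± 0.10 higher in log phase (adjusted p = 2.2e-11). All of these calls were also made with WTa or WTb alone, where the changes ran from 0.88 for nam8D in log phase against WTb to 2.38 for mud1D at 48 h against WTa. In nam8D at 48 h the centred change was still 0.84, and in mud1D 1.06. From log phase to 48 h the ratio rose by 0.51 ± 0.11 in mud1D (adjusted p = 0.00012) and by 0.67 ± 0.11 in nam8D (adjusted p = 2.3e-06). Centred libraries turned both, to -0.25 and -0.44, and both were then called lower. In wild type the change was 0.18 ± 0.09 (adjusted p = 0.0575), which passed the threshold with DESeq2, with the strain name as a term and with only the groups compared (adjusted p = 0.0434, 0.0485 and 0.0255) and without WTb log replicate 3, mud1D log replicate 3 or nam8D log replicate 3 (adjusted p = 0.0405, 0.0391 and 0.0444), and was -0.10 after centring.

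CMC4 RNA also became far more abundant at 48 h. Counts scaled to the library total (CPM), premature plus mature, were 10080.1, 8687 and 7204 in mud1D at 48 h, against 549, 544 and 485 in log phase. In nam8D they were 4294, 5098 and 5219 at 48 h, against 544, 573 and 557 in log phase. Wild type averaged 5636 ± 695 CPM at 48 h (SD, n = 6) and 381 ± 30.0 in log phase (SD, n = 5). In each genotype every library at 48 h lay above every log-phase library. The fitted log2 changes, which are relative to the other targets through TMM scaling, were 3.75 ± 0.11 in mud1D, 2.88 ± 0.11 in nam8D and 3.64 ± 0.09 in wild type (adjusted p = 1.4e-19, 9.2e-18 and 1.9e-21).

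Spliced CMC4 RNA alone gave another order of genotypes than the total. Mature counts averaged 1555 ± 258 CPM in mud1D and 991 ± 85.2 in nam8D at 48 h (SD, n = 3 each), against 2561 ± 221 in wild type (SD, n = 6). The change in mature counts was -0.57 ± 0.10 for mud1D (adjusted p = 2.2e-05) and -1.23 ± 0.10 for nam8D (adjusted p = 2.8e-10), while the change in the total was 0.60 ± 0.08 for mud1D (adjusted p = 8.4e-07) and -0.21 ± 0.09 for nam8D (adjusted p = 0.033). The nam8D total was not called with DESeq2, RLE scaling or WTa alone (adjusted p = 0.065, 0.0663 and 0.468), nor without any 1 of 8 libraries: WTa 48 h replicates 1, 2 and 3, WTb 48 h replicates 1 and 2, WTb log replicate 2, mud1D log replicate 2 and nam8D 48 h replicate 1 (adjusted p between 0.0558 and 0.237). In log phase mature CMC4 was 0.54 ± 0.11 lower in mud1D than in wild type (adjusted p = 0.00034), and its total 0.49 ± 0.09 higher (adjusted p = 0.00017). In nam8D in log phase the change was -0.24 ± 0.11 for mature counts (adjusted p = 0.0773), and the total was 0.55 ± 0.09 higher (adjusted p = 4.6e-05).

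**Figure D2:**
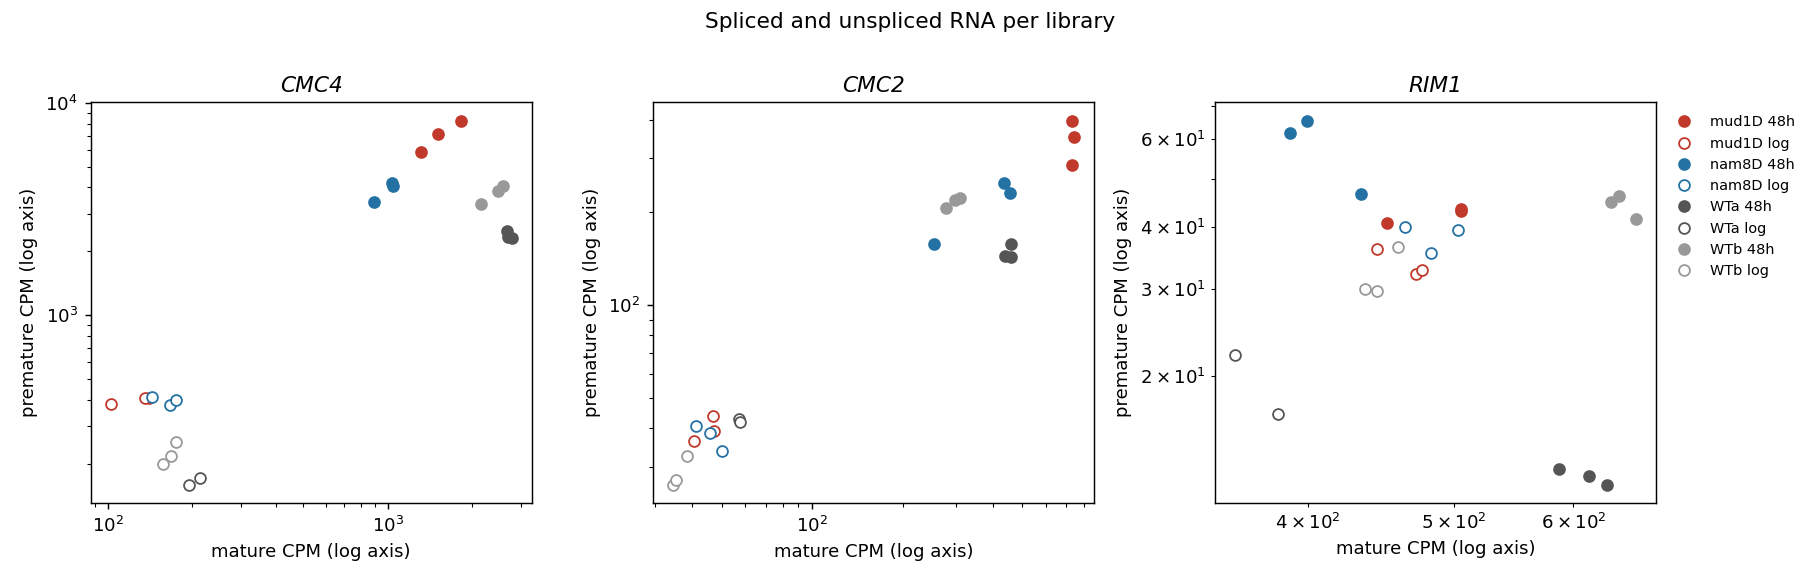
Mature (x axis) and premature (y axis) CPM of CMC4, CMC2 and RIM1 in each library, both axes logarithmic. For CMC4 the mutant libraries at 48 h hold fewer mature counts than the wild-type libraries at 48 h, and for RIM1 the nam8D libraries at 48 h have the lowest mature means at that time.

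ERV1, the sulfhydryl oxidase gene, had a higher mean premature share in mud1D, at either time, than in nam8D or wild type. The shares in mud1D were 11.6%, 11.1% and 12.7% at 48 h, against 13.1%, 13.6% and 14.1% in log phase. In nam8D they were 8.88%, 8.64% and 9.46% at 48 h, against 5.75%, 7.73% and 7.77% in log phase. The mean was lower at 48 h in mud1D and higher at 48 h in nam8D, and in neither did the libraries of both times overlap. Wild-type shares were 4.18%, 4.31% and 4.22% in WTa and 6.54%, 4.90% and 7.31% in WTb at 48 h. In log phase they were 5.96% and 5.70% in WTa and 7.0%, 6.78% and 5.87% in WTb. Every mud1D library was above every wild-type library.

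The ERV1 ratio was higher than in wild type by 1.30 ± 0.13 in mud1D at 48 h (adjusted p = 2.4e-11) and by 1.26 ± 0.13 in log phase (adjusted p = 1.2e-09). In nam8D it was 0.86 ± 0.12 higher at 48 h (adjusted p = 9.9e-08), a direction that centring turned to -0.03, and the log-phase change was 0.21 ± 0.14 (adjusted p = 0.235). Set directly against each other, nam8D was 1.05 ± 0.15 lower than mud1D in log phase (adjusted p = 1.9e-06) and 0.44 ± 0.14 lower at 48 h (adjusted p = 0.0217). The 48 h difference was not called with the strain name as a term or with the compared groups alone (adjusted p = 0.141 and 0.0773), nor without mud1D replicate 3 or nam8D replicate 2 at 48 h (adjusted p = 0.0945 and 0.0539). From log phase to 48 h the change was -0.24 ± 0.15 in mud1D (adjusted p = 0.133), 0.37 ± 0.15 in nam8D (adjusted p = 0.0227) and -0.28 ± 0.11 in wild type (adjusted p = 0.0203). Centred, the nam8D change was -0.72 and the mud1D change -1.0 (adjusted p = 4.5e-07 in mud1D), and both were called lower. The nam8D call was lost without nam8D log-phase replicate 1 or 48 h replicate 3 (adjusted p = 0.203 and 0.0691), and the wild-type call without any 1 of 3 libraries, WTa log replicate 2, WTb log replicate 1 or WTb 48 h replicate 2 (adjusted p = 0.0694, 0.0534 and 0.0788), with the strain name as a term (adjusted p = 0.0552) or with WTb alone (-0.08, adjusted p = 0.665).

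ERV1 RNA was more abundant at 48 h in each genotype, with 506 ± 59.2 CPM in mud1D, 588 ± 17.7 in nam8D (SD, n = 3 each) and 745 ± 171 in wild type (SD, n = 6), against 212 ± 7.66, 240 ± 7.29 and 305 ± 91.2 in log phase. The log2 changes were 0.96 ± 0.07, 1.05 ± 0.07 and 0.98 ± 0.05 (adjusted p = 7.9e-12, 1.9e-12 and 1.6e-14). ERV1 RNA was lower than in wild type in mud1D, by 0.56 ± 0.06 at 48 h and 0.54 ± 0.07 in log phase (adjusted p = 3.4e-08 and 1.3e-06). It was also lower in nam8D, by 0.31 ± 0.06 at 48 h and 0.38 ± 0.07 in log phase (adjusted p = 0.0001 and 7.7e-05). The wild-type sets differed here, with 898 ± 50.9 CPM in WTa and 592 ± 12.1 in WTb at 48 h (SD, n = 3 each), and against WTb alone the nam8D changes were 0.00 at 48 h and -0.04 in log phase (adjusted p = 0.964 and 0.747) and that of mud1D in log phase -0.20 (adjusted p = 0.0781).

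CMC2, a gene of the twin CX9C kind, differed between the wild-type sets at 48 h. At 48 h its shares were 23.8%, 25.6% and 24.8% in WTa and 42.5%, 41.8% and 42.7% in WTb. In log phase they were 42.9% and 42.1% in WTa and 43.2%, 43.7% and 45.8% in WTb. The sets were close together in log phase and did not overlap at 48 h. In mud1D the shares were 35.1%, 32.1% and 28.0% at 48 h, against 45.4%, 48.5% and 47.3% in log phase. In nam8D they were 38.3%, 33.7% and 36.4% at 48 h, against 45.8%, 40.1% and 49.7% in log phase. Both mutants lay between WTa and WTb at 48 h and below their own log-phase libraries.

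The CMC2 ratio fell at 48 h by 0.94 ± 0.14 in mud1D (adjusted p = 1.8e-07), by 0.55 ± 0.14 in nam8D (adjusted p = 0.00062) and by 0.64 ± 0.10 in wild type (adjusted p = 1.2e-06). Within WTa it fell by 1.17 ± 0.15 (adjusted p = 3e-08), and within WTb the change was -0.12 ± 0.14 (adjusted p = 0.486). The WTa change minus the WTb change was -1.05 ± 0.21 (adjusted p = 0.00025), a contrast added after the data were seen in which 2.26% of introns were called higher and 22.3% lower. Against wild type at 48 h the changes were -0.08 ± 0.11 in mud1D (adjusted p = 0.476) and 0.20 ± 0.11 in nam8D (adjusted p = 0.0877, and 0.0417 without nam8D replicate 2). Both depended on the set: against WTa alone mud1D was 0.50 and nam8D 0.78 higher (adjusted p = 0.00052 and 1.2e-06), and against WTb alone mud1D was 0.66 and nam8D 0.38 lower (adjusted p = 2e-05 and 0.00834). After centring CMC2 was called lower than in wild type at 48 h, at -0.98 in mud1D and -0.70 in nam8D (adjusted p = 1.4e-06 and 8.2e-05). In log phase the changes were 0.22 ± 0.13 in mud1D and 0.11 ± 0.14 in nam8D (adjusted p = 0.166 and 0.561).

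CMC2 RNA was more abundant at 48 h, with 1079 ± 59.3 CPM in mud1D, 594 ± 157 in nam8D (SD, n = 3 each) and 556 ± 51.8 in wild type (SD, n = 6), against 84.7 ± 6.97, 83.4 ± 1.31 and 78.7 ± 19.7 in log phase. The log2 changes were 3.38 ± 0.14, 2.59 ± 0.13 and 2.54 ± 0.10 (adjusted p = 4.9e-17, 8.5e-15 and 4e-17). At 48 h mud1D was 0.93 ± 0.10 above wild type (adjusted p = 2.4e-08), whereas the nam8D value was 0.10 ± 0.11 (adjusted p = 0.413). Without nam8D 48 h replicate 1, whose level of 413 CPM was below the 685 and 684 CPM of the others, the nam8D change was 0.31 (adjusted p = 0.00053).

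RIM1, the gene of the mitochondrial single-strand binding protein, had its highest share in nam8D at 48 h. There it was 9.70%, 14.1% and 13.7%, against 7.93%, 6.83% and 7.28% in log phase. In mud1D it was 8.27%, 7.91% and 7.83% at 48 h, against 7.50%, 6.37% and 6.42% in log phase. All 6 mutant libraries at 48 h lay above all wild-type libraries at 48 h. Those were 1.88%, 2.01% and 2.17% in WTa and 6.68%, 5.92% and 6.59% in WTb. In log phase wild-type shares were 4.22% and 5.80% in WTa and 6.44%, 6.27% and 7.34% in WTb. WTa at 48 h was thus the lowest group by a wide margin, with 58 to 77 premature counts per library.

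At 48 h the RIM1 ratio was 1.21 ± 0.14 higher in mud1D than in wild type (adjusted p = 2.1e-09) and 1.91 ± 0.14 higher in nam8D (adjusted p = 2.2e-14). Against WTb alone these values were 0.35 and 1.05 (adjusted p = 0.0394 and 2.1e-07), and against WTa alone 2.07 and 2.78. The nam8D ratio was 0.70 ± 0.16 above that of mud1D at 48 h (adjusted p = 0.00079), and this was not called with the strain name as a term (0.57, adjusted p = 0.065). From log phase to 48 h the ratio rose by 0.84 ± 0.15 in nam8D (adjusted p = 4.5e-06; -0.27 after centring), changed by 0.27 ± 0.16 in mud1D (adjusted p = 0.116; -0.50 after centring) and fell by 0.70 ± 0.12 in wild type (adjusted p = 3.3e-06). The centred value was called lower in mud1D and was not called in nam8D. The wild-type fall was 1.33 ± 0.19 on the log2 scale in WTa, while WTb gave -0.07 ± 0.15 (adjusted p = 0.706), and the difference between the sets was -1.26 ± 0.24 (adjusted p = 0.00017). In log phase nam8D was 0.38 ± 0.13 above wild type (adjusted p = 0.0269), a call lost against WTb alone (0.15, adjusted p = 0.572), with the strain name as a term (adjusted p = 0.0572), after centring (0.30, adjusted p = 0.0566) and without any 1 of 4 libraries, WTa replicate 2, WTb replicate 2 and nam8D replicates 1 and 3 (adjusted p between 0.0559 and 0.19). The mud1D value in log phase was 0.25 ± 0.13 (adjusted p = 0.116, and 0.0389 without WTa replicate 3; -0.17 after centring).

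RIM1 was the 1 gene of the 7 whose level fell at 48 h in a mutant. In nam8D the 3 libraries held 481, 465 and 451 CPM at 48 h, against 504, 518 and 542 in log phase, and the log2 change was -0.41 ± 0.06 (adjusted p = 2.3e-06). In mud1D they held 492, 548 and 549 CPM at 48 h, against 480.5, 504 and 509 in log phase. The mud1D change was -0.20 ± 0.06 with TMM scaling (adjusted p = 0.0046), but 0.09 with library totals (adjusted p = 0.18), so its direction depends on the scaling. In wild type RIM1 rose by 0.35 ± 0.05 (adjusted p = 2e-07), to 657 ± 39.9 CPM at 48 h (SD, n = 6), against 443 ± 50.6 in log phase (SD, n = 5). At 48 h RIM1 RNA was lower than in wild type by 0.34 ± 0.06 in mud1D and by 0.50 ± 0.06 in nam8D (adjusted p = 9.3e-06 and 3.4e-08). In log phase it was higher by 0.22 ± 0.06 in mud1D and 0.26 ± 0.06 in nam8D (adjusted p = 0.00337 and 0.00077), and neither was called against WTb alone (adjusted p = 0.75 and 0.505), nor the mud1D value without WTb log replicate 2 (adjusted p = 0.0529).

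**Figure D3:**
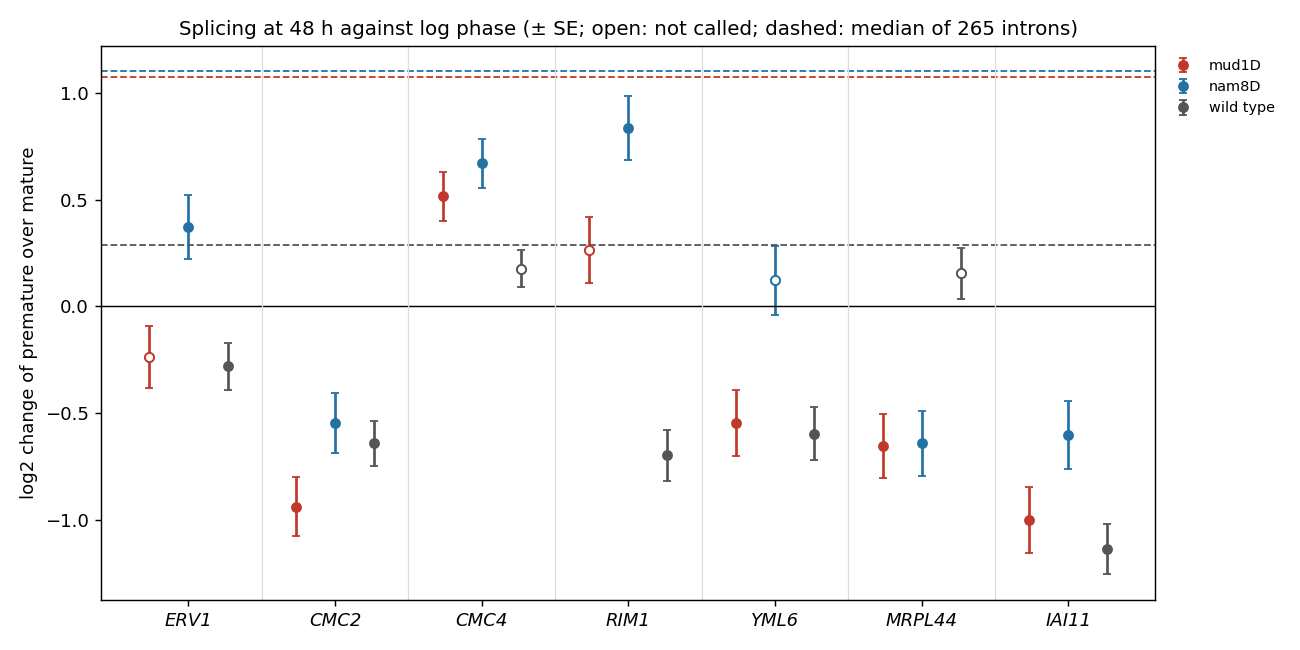
Difference in the log2 ratio of premature to mature counts at 48 h against log phase, with its standard error, for mud1D, nam8D and wild type (WTa and WTb with equal weight). Open points were not called, and dashed lines are the medians of all 265 introns (1.08, 1.10 and 0.29); IAI11 and CMC2 are below 0 in each genotype, and RIM1 is above 0 in nam8D (-0.27 after centring) and below 0 in wild type.

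The ribosomal protein gene YML6 had shares of 7.98%, 7.64% and 7.55% in mud1D at 48 h, against 10.6%, 9.07% and 13.0% in log phase. In nam8D they were 7.26%, 7.60% and 6.99% at 48 h, against 6.98%, 7.20% and 6.07% in log phase. The groups overlapped in nam8D and not in mud1D. In WTa the shares were 4.80%, 5.15% and 4.57% at 48 h, against 8.25% and 9.66% in log phase, and in WTb 4.73%, 4.65% and 5.55% at 48 h, against 6.18%, 4.53% and 6.82% in log phase. Both mutants were above every wild-type library at 48 h. The ratio was then 0.70 ± 0.12 higher in mud1D and 0.61 ± 0.12 higher in nam8D than in wild type (adjusted p = 2.5e-06 and 2.7e-05), and centring turned these to -0.20 and -0.29. The centred value was not called in mud1D and was called lower in nam8D. In log phase mud1D was 0.65 ± 0.16 higher (adjusted p = 0.00065), a call lost against WTa alone (0.32, adjusted p = 0.121) and after centring (0.23, adjusted p = 0.109), and nam8D gave -0.11 ± 0.16 (adjusted p = 0.636).

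From log phase to 48 h the YML6 ratio fell by 0.55 ± 0.15 in mud1D and by 0.60 ± 0.12 in wild type (adjusted p = 0.00158 and 5.9e-05), and changed by 0.12 ± 0.16 in nam8D (adjusted p = 0.497; -0.99 after centring, called lower). The fall in WTa was 0.95 ± 0.17 on the log2 scale, and WTb gave -0.25 ± 0.18 (adjusted p = 0.219). YML6 RNA averaged 1266 ± 92.6 CPM in mud1D and 925 ± 117 in nam8D at 48 h (SD, n = 3 each) and 564 ± 31.1 in wild type (SD, n = 6), against 110 ± 7.46, 125 ± 7.73 and 124 ± 12.7 in log phase. The log2 changes at 48 h were 3.23 ± 0.10 in mud1D, 2.65 ± 0.09 in nam8D and 1.93 ± 0.07 in wild type (adjusted p = 1.9e-19, 5.8e-18 and 5.9e-18). At 48 h YML6 RNA was 1.14 ± 0.07 higher in mud1D and 0.71 ± 0.07 higher in nam8D than in wild type (adjusted p = 2.5e-12 and 9.3e-09).

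MRPL44, the other gene for the large mitochondrial ribosomal subunit, went the opposite way from most introns in the mutants, as CMC2 and IAI11 also did. The MRPL44 shares in mud1D were 8.76%, 10.2% and 12.6% at 48 h, against 14.9%, 13.1% and 18.9% in log phase. In nam8D they were 10.3%, 9.72% and 8.80% at 48 h, against 14.2%, 13.2% and 15.2% in log phase. The times did not overlap in either mutant. In WTa the shares were 11.6%, 10.5% and 11.6% at 48 h, against 8.86% and 8.71% in log phase, and in WTb 12.2%, 10.7% and 10.2% at 48 h, against 11.9%, 11.6% and 11.4% in log phase. WTa libraries were thus higher at 48 h and WTb libraries overlapped.

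The MRPL44 ratio fell at 48 h by 0.65 ± 0.15 in mud1D and by 0.64 ± 0.15 in nam8D (adjusted p = 0.00017 and 0.00027), and changed by 0.15 ± 0.12 in wild type (adjusted p = 0.235). The difference of these changes from that of wild type is given with the other interaction values. In log phase the ratio was 0.71 ± 0.14 higher in mud1D and 0.56 ± 0.14 higher in nam8D than in wild type (adjusted p = 7.5e-05 and 0.00198). The mud1D call was lost after centring (0.29, adjusted p = 0.0619), and the nam8D call against WTb alone (0.33, adjusted p = 0.189). At 48 h the changes were -0.10 ± 0.13 and -0.24 ± 0.13 (adjusted p = 0.453 and 0.0892), and both were called lower after centring, at -1.01 and -1.14 (adjusted p = 7.3e-07 and 1.5e-07). MRPL44 RNA averaged 708 ± 57.9 CPM in mud1D and 576 ± 54.5 in nam8D at 48 h (SD, n = 3 each) and 337 ± 59.3 in wild type (SD, n = 6), against 245 ± 13.0, 229 ± 14.4 and 181 ± 12.8 in log phase. The log2 changes at 48 h were 1.23 ± 0.08, 1.09 ± 0.08 and 0.65 ± 0.06 (adjusted p = 2.2e-13, 3.6e-12 and 1.8e-10). MRPL44 RNA was above wild type by 1.06 ± 0.06 in mud1D and 0.79 ± 0.06 in nam8D at 48 h (adjusted p = 9.2e-13 and 2.2e-10), and by 0.48 ± 0.07 and 0.35 ± 0.07 in log phase (adjusted p = 1e-05 and 0.00041, with 0.0744 for nam8D against WTb alone).

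IAI11, the divergent neighbour of CMC2, had a lower premature share at 48 h in each genotype. Its shares were 15.9%, 18.5% and 19.7% in mud1D at 48 h, against 30.1%, 30.5% and 30.6% in log phase. In nam8D they were 14.1%, 16.1% and 15.4% at 48 h, against 20.1%, 20.5% and 23.4% in log phase. No library at 48 h reached a log-phase library of its genotype. In WTa the shares were 12.3%, 12.0% and 10.1% at 48 h, against 24.3% and 25.0% in log phase, and in WTb 13.1%, 11.7% and 16.6% at 48 h, against 22.9%, 22.4% and 24.9% in log phase. The log2 ratio fell by 1.0 ± 0.15 in mud1D, by 0.60 ± 0.16 in nam8D and by 1.14 ± 0.12 in wild type (adjusted p = 4.2e-07, 0.00096 and 1.2e-10). It also fell within WTa and WTb taken alone, by 1.34 ± 0.17 and 0.94 ± 0.16 (adjusted p = 2.1e-08 and 5.1e-06).

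Against wild type, IAI11 was 0.61 ± 0.12 higher in mud1D at 48 h and 0.47 ± 0.15 higher in log phase (adjusted p = 3.4e-05 and 0.0083). In nam8D it was 0.32 ± 0.13 higher at 48 h (adjusted p = 0.0176), a call that was lost against WTb alone, with the strain name as a term (adjusted p = 0.272 and 0.0879), or without WTb replicate 2 or nam8D replicate 2 or 3 at 48 h (adjusted p = 0.05, 0.0905 and 0.0504). Centring turned the 48 h values to -0.29 in mud1D and -0.58 in nam8D, both called lower (adjusted p = 0.00858 and 1.5e-05), and ended the log-phase call in mud1D (0.06, adjusted p = 0.638). In log phase nam8D gave -0.21 ± 0.15 (adjusted p = 0.269; -0.29 after centring, adjusted p = 0.0185) and was 0.68 ± 0.17 below mud1D (adjusted p = 0.00207). IAI11 RNA averaged 412 ± 77.0 CPM in mud1D and 317 ± 44.2 in nam8D at 48 h (SD, n = 3 each) and 314 ± 12.0 in wild type (SD, n = 6), against 63.4 ± 7.71, 69.0 ± 5.68 and 62.9 ± 8.88 in log phase. The log2 changes were 2.41 ± 0.12, 1.96 ± 0.12 and 2.05 ± 0.09 (adjusted p = 3.6e-15, 2e-13 and 2.7e-16). At 48 h IAI11 RNA was 0.36 ± 0.10 higher in mud1D than in wild type (adjusted p = 0.00169), and the nam8D value was 0.01 ± 0.10 (adjusted p = 0.926).

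**Figure D4:**
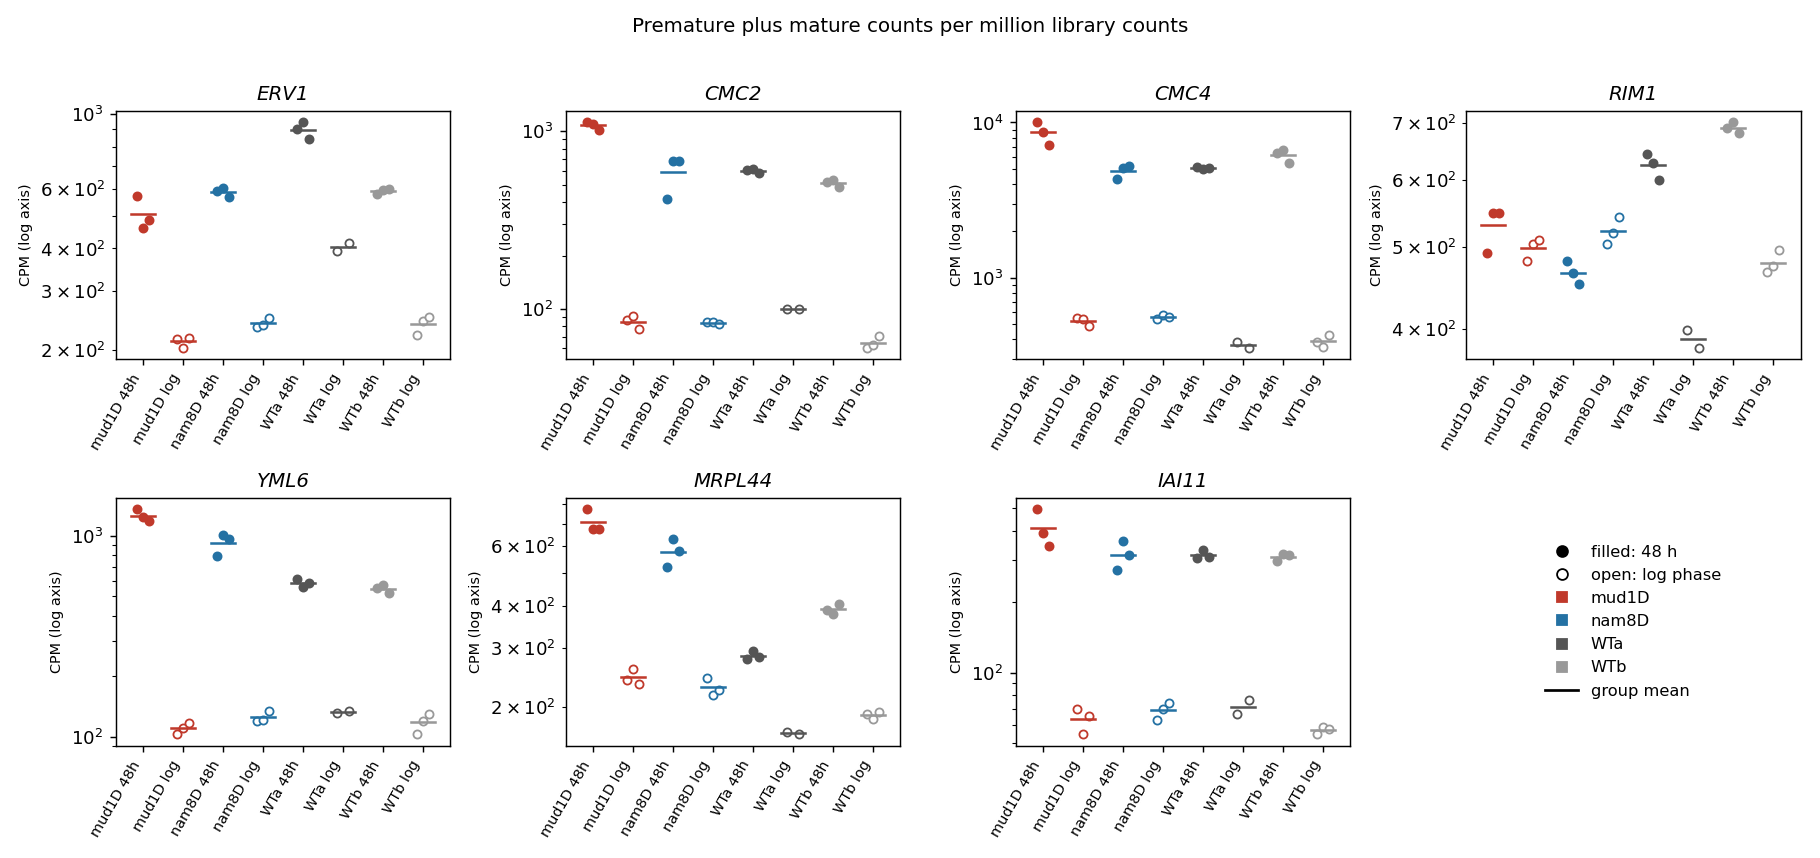
Library-scaled counts (CPM, premature plus mature, logarithmic axis) of each gene in each library, with 1 panel per gene. Filled points are 48 h, open points log phase and bars group means; 6 genes are higher at 48 h in every genotype, and RIM1 is lower at 48 h in the nam8D libraries.

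Counted over the 7 genes, RNA level at 48 h was called higher for 6 and lower for 1 in mud1D (background 50.2% of targets higher and 41.5% lower), for 6 and 1 in nam8D (background 47.5% and 41.1%) and for 7 and 0 in wild type (background 52.5% and 38.1%). The median log2 changes of the 7 were 2.41, 1.96 and 1.93, against 0.18, 0.11 and 0.18 over all targets. Scaling by library totals put the median of all targets at 0.47, 0.36 and 0.43 and gave 6 higher and 0 lower in mud1D, with the other counts as before. The share of all targets called was not counted for that scaling. The WTa change in level minus the WTb change was called for 0 of the 7 by edgeR (background 6.04% higher and 4.53% lower), and RIM1 alone had an unadjusted p under 0.05 there (0.25 ± 0.09). These are levels relative to the other primed targets, and a change in RNA per cell cannot be told apart from a change in the share of cells that hold the RNA.

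Against wild type at 48 h the level was called higher for 5 and lower for 2 of the 7 in mud1D (background 35.1% and 41.1%) and for 2 and 3 in nam8D (background 32.5% and 41.1%). In log phase it was 3 higher and 1 lower in mud1D (background 24.2% and 17.4%) and 3 and 1 in nam8D (background 23.4% and 15.1%). ERV1 was the gene called lower in all 4 of these comparisons. Against WTb alone its calls in nam8D at either time and in mud1D in log phase were lost, as given above. With mature counts only, the counts were 4 higher and 3 lower in mud1D and 2 and 3 in nam8D at 48 h, and 2 and 3 in mud1D and 2 and 1 in nam8D in log phase. The share of all targets called was not counted for that fit, so these counts have no background beside them. The log-phase values of the remaining genes against wild type, CMC2, IAI11 and YML6, ran from -0.17 to 0.10 and were not called (adjusted p between 0.0983 and 0.997). The YML6 value in mud1D passed the threshold with DESeq2 (-0.19, adjusted p = 0.0423) and without any 1 of 6 libraries, WTa 48 h replicates 1, 2 and 3, WTb 48 h replicates 2 and 3 and WTb log replicate 2 (adjusted p between 0.0152 and 0.0273).

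Splicing against wild type was called in 1 direction for these genes. In mud1D, 5 were higher and 0 lower at 48 h (background 90.6% and 1.13%) and 5 and 0 in log phase (background 47.9% and 7.92%). In nam8D, 5 were higher and 0 lower at 48 h (background 88.3% and 1.13%) and 3 and 0 in log phase (background 29.4% and 7.17%). The median change of the 7 at 48 h was 0.70 in mud1D and 0.61 in nam8D, below the 1.11 and 1.01 of all introns, and in log phase it was 0.65 and 0.21, against 0.31 and 0.17. After centring, 3 were higher and 3 lower in mud1D at 48 h (44.5% and 22.3% of all introns) and 2 and 0 in log phase (21.5% and 35.5%). In nam8D, centring gave 2 higher and 4 lower at 48 h (38.5% and 29.8%), and 2 and 1 in log phase (29.1% and 13.6%). Between the mutants, nam8D had 1 higher and 1 lower than mud1D at 48 h (background 9.43% and 17.7%) and 0 higher and 4 lower in log phase (background 10.9% and 25.3%), the 4 being ERV1, YML6, IAI11 and CMC4. The YML6 difference in log phase was -0.76 ± 0.18 (adjusted p = 0.00128), and that of CMC4 was -0.38 ± 0.12 (adjusted p = 0.0115) and was lost after centring (-0.04, adjusted p = 0.747), with the strain name as a term (adjusted p = 0.112) or without mud1D replicate 3, nam8D replicate 1 or nam8D replicate 2 (adjusted p = 0.0935, 0.0615 and 0.0653). The remaining differences between the mutants were not called, with values from -0.28 for IAI11 at 48 h to 0.28 for CMC2 at 48 h, where CMC2 passed the threshold without mud1D replicate 1 (adjusted p = 0.0294). After centring, RIM1 was also called higher in nam8D than in mud1D in log phase (0.47, adjusted p = 0.00829), and IAI11 lower at 48 h (-0.29, adjusted p = 0.0371).

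**Figure D5:**
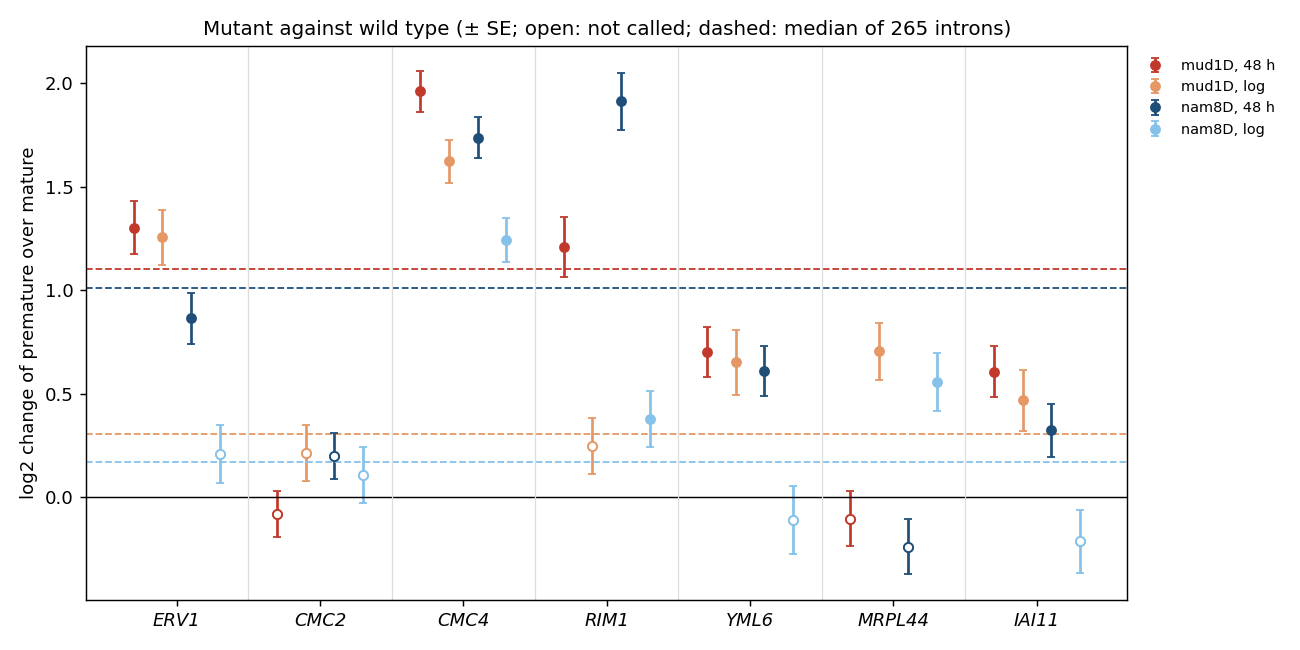
Difference in the log2 ratio of premature to mature counts in mud1D and nam8D against wild type, at 48 h and in log phase, with its standard error. Open points were not called, and dashed lines are the medians of all 265 introns (1.11 and 1.01 at 48 h, 0.31 and 0.17 in log phase); CMC4 lies above the matching line in all 4 comparisons and CMC2 below it.

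Whether the response to 48 h differed between genotypes was tested as the mutant's change minus that of wild type. In mud1D 2 of the 7 were called higher and 1 lower (background 65.3% and 4.91%), with a median of 0.05 for the 7 and 0.72 for all introns. In nam8D 5 were higher and 1 lower (background 75.8% and 3.02%), with medians of 0.54 and 0.81. MRPL44 was the gene called lower in both, by 0.81 ± 0.19 in mud1D and 0.80 ± 0.19 in nam8D (adjusted p = 0.0004 and 0.00051), and both were called with either wild-type set alone. RIM1 was higher in both, by 0.96 ± 0.20 in mud1D and 1.54 ± 0.19 in nam8D (adjusted p = 6.9e-05 and 3.2e-08), though the mud1D call was lost with WTb alone (0.33, adjusted p = 0.187). CMC4 was higher by 0.34 ± 0.14 in mud1D and 0.49 ± 0.14 in nam8D (adjusted p = 0.035 and 0.00249), ERV1 by 0.66 ± 0.19, YML6 by 0.72 ± 0.20 and IAI11 by 0.54 ± 0.20 in nam8D (adjusted p = 0.00222, 0.00222 and 0.0149), and centring turned all 5 of these to below 0, to -0.15 and -0.34 for CMC4, -0.16 for ERV1, -0.12 for YML6 and -0.29 for IAI11. With WTb alone ERV1, YML6 and IAI11 were not called in nam8D (adjusted p = 0.068, 0.176 and 0.188), nor CMC4 in mud1D (adjusted p = 0.133), and the mud1D value of CMC4 was lost without any 1 of 7 libraries, WTa log replicates 2 and 3, WTa 48 h replicate 3, WTb log replicate 3, mud1D log replicates 1 and 2 and mud1D 48 h replicate 2 (adjusted p between 0.0528 and 0.118). The values of ERV1, YML6, IAI11 and CMC2 in mud1D and of CMC2 in nam8D ran from -0.30 to 0.14 and were not called, though CMC2 in mud1D was with WTb alone (-0.82, adjusted p = 0.00085) and without mud1D 48 h replicate 1 (-0.41, adjusted p = 0.0394). After centring all 5 were called lower: in mud1D CMC2 by 0.79, ERV1 by 0.44, YML6 by 0.44 and IAI11 by 0.34 (adjusted p = 0.00117, 0.0261, 0.03 and 0.029), and in nam8D CMC2 by 0.73 (adjusted p = 0.00369). CMC2 in nam8D was instead called higher with WTa alone (0.62, adjusted p = 0.00764). Of the 7 genes, centring called 1 higher and 5 lower in mud1D, and 1 and 3 in nam8D. Over all introns, centring gave 40% called higher and 18.1% lower in mud1D, and 18.5% and 23% in nam8D.

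Other mitochondrial genes with an intron were read beside these: QCR9 and QCR10 (subunits of respiratory complex III), COX5B (a subunit of cytochrome c oxidase), COI1, AIM11, CQD1, OM14 (an outer membrane protein), MRX20 and PTC7 (a mitochondrial protein phosphatase). At 48 h against log phase, splicing was called higher for 2 and lower for 6 of these 9 in mud1D (background 64.9% and 15.5%). The counts were 2 and 4 in nam8D (background 70.9% and 9.81%), and 0 and 8 in wild type (background 51.7% and 28.7%). QCR10 had the smallest p-value among the lower ones in each genotype, with changes of -1.24 ± 0.11 in mud1D, -1.06 ± 0.11 in nam8D and -1.28 ± 0.09 in wild type (adjusted p = 4.2e-12, 1.8e-10 and 3.2e-15). CQD1 had the smallest among the higher ones, with 0.65 ± 0.20 in mud1D and 1.25 ± 0.19 in nam8D (adjusted p = 0.00362 and 3e-07), and its wild-type change was -1.11 ± 0.16 (adjusted p = 9.1e-08). RNA level at 48 h was called higher for 8 and lower for 0 of the 9 in mud1D (background 50.2% and 41.5%). The counts were 8 and 1 in nam8D (background 47.5% and 41.1%), and 9 and 0 in wild type (background 52.5% and 38.1%). QCR10 rose by 4.48 ± 0.10 in mud1D, by 3.93 ± 0.10 in nam8D and by 3.90 ± 0.08 in wild type (adjusted p = 2.1e-21, 1.5e-20 and 1.7e-22), and PTC7 fell by 0.31 ± 0.10 in nam8D (adjusted p = 0.006).

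Against wild type, splicing of the 9 was called higher for 8 and lower for 0 in mud1D at 48 h (background 90.6% and 1.13%). In log phase the counts in mud1D were 8 and 0 (background 47.9% and 7.92%). In nam8D they were 8 and 1 at 48 h (background 88.3% and 1.13%) and 3 and 1 in log phase (background 29.4% and 7.17%). CQD1 had the smallest p-value at 48 h, with shares of 25.2% ± 2.24 in mud1D and 54.8% ± 7.21 in nam8D (SD, n = 3 each), against 7.37% ± 1.48 in wild type (SD, n = 6). Its log2 changes were 2.10 ± 0.15 and 3.94 ± 0.15 (adjusted p = 3.5e-14 and 1.5e-21). In log phase PTC7 led in mud1D, at 1.37 ± 0.13, and CQD1 in nam8D, at 1.59 ± 0.20 (adjusted p = 1e-10 and 7e-08). COI1 was the 1 gene called lower, in nam8D, by 0.96 ± 0.14 at 48 h and 0.46 ± 0.17 in log phase (adjusted p = 7.1e-08 and 0.0314). Level against wild type was called higher for 3 and lower for 4 in mud1D at 48 h (background 35.1% and 41.1%). In nam8D at 48 h the counts were 1 and 7 (background 32.5% and 41.1%). In log phase they were 1 and 1 in each mutant (background 24.2% and 17.4% in mud1D, 23.4% and 15.1% in nam8D). COX5B had the smallest p-value among the higher ones in each, with 1.71 ± 0.08 in mud1D and 1.39 ± 0.08 in nam8D at 48 h (adjusted p = 3.9e-15 and 2.7e-13), and CQD1 among the lower ones at 48 h, with -0.69 ± 0.08 and -1.10 ± 0.08 (adjusted p = 4.2e-08 and 2.6e-11).

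As a description of their pattern, the 8 group means of the log2 ratio of each gene were correlated with those of every other tested intron, without a test, since the groups share libraries' depth and the shift of the median intron. The most alike intron was that of PCC1 for ERV1 (Pearson r = 0.967), NCE101 for CMC2 (0.890), TAF14 for CMC4 (0.961), OST5 for RIM1 (0.944), RUB1 for YML6 (0.919), the second intron of RPS22B for MRPL44 (0.733) and REC114 for IAI11 (0.971). Among the 7 genes, the closest pair was ERV1 and CMC4 (0.865), and MRPL44 was least like the others (0.408 with IAI11).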

How the data were processed

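Premature and mature counts per intron were deposited by the authors as whole-number counts in 1 table per strain set, per the file headers, with no normalization. Per the submitters' processing notes, FastQC, fastp 0.20.0 and STAR 2.7.2b were run and the build was R64. The rule that assigned reads to products, and any use of molecular identifiers, are not given in the sources used here. RNA was taken up in hot acid phenol, per the labels' protocols.

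Splicing was tested in R 4.3.3 with the quasi-likelihood test of edgeR 4.0.16, in 1 fit that held both columns of all 23 libraries, each library's own level and each group's premature level. Wild type is the mean of WTa and WTb. Introns needed a listing in all libraries and a mean of 20 counts. RNA level was tested on the summed counts with TMM scaling and filterByExpr. Tests were two-sided, with Benjamini-Hochberg adjustment over all 265 introns of a comparison and a threshold of 0.05. Standard errors were taken from the log2 change and its F statistic. Alternatives were DESeq2 1.42.0, limma 3.58.1 on log2 odds with a pseudocount of 0.5, libraries centred on their median intron (also with limma), count minimums of 100 or none, a replicate block, the strain name in the labels as a term, WTa or WTb alone, only the groups compared (added after the data were seen), 1 library left out, RLE factors, library totals, no filter and mature counts only. CPM values are counts scaled to the library total. The fits were tested on simulated data. Python 3.11.15 with pandas 2.3.3, numpy 2.4.6, scipy 1.17.1 and matplotlib 3.10.9 did the rest. Replicates differed by more than sampling noise (chi-square over its degrees of freedom at least 21.5). All 7 introns matched an R64 annotation. The genes, lists and tests were chosen with earlier results of these data known. All 7 genes are named in each comparison, and of the other 9 mitochondrial genes those with the smallest p-value in each direction.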

Additional observations from a re-analysis of the deposited data

Results flagged for a closer look

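The response to 48 h was compared between genotypes and between wild-type sets by a test of the difference itself (edgeR, quasi-likelihood), which called 65.3% of all introns higher and 4.91% lower in mud1D against wild type, and 75.8% and 3.02% in nam8D. In mud1D the change at 48 h exceeded that of wild type by 0.96 on the log2 scale for RIM1 and by 0.34 for CMC4, and that of MRPL44 was below it, at -0.81. In nam8D it exceeded that of wild type by 1.54 for RIM1, 0.72 for YML6, 0.66 for ERV1, 0.54 for IAI11 and 0.49 for CMC4, and that of MRPL44 was again below it, at -0.80. Centring turned 5 of these 9 differences, those of CMC4 in both mutants and of ERV1, YML6 and IAI11 in nam8D, and with WTb alone 5 were no longer called: RIM1 and CMC4 in mud1D (adjusted p = 0.187 and 0.133) and ERV1, YML6 and IAI11 in nam8D (adjusted p = 0.068, 0.176 and 0.188).

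The WTa change at 48 h minus the WTb change was -1.05 for CMC2, -1.26 for RIM1 and -0.70 for YML6 (adjusted p = 0.00025, 0.00017 and 0.035), in a test that called 2.26% of all introns higher and 22.3% lower. The labels do not say how the sets differ. The 9 other mitochondrial genes had 0 splicing calls in this contrast by edgeR (1 at an unadjusted p under 0.05, CQD1). No library stood apart from the others of its group in the 28 groups of pooled wild-type values that were examined. The rule set the gap to the nearest library against the range of WTa and WTb together. Where the sets differ, as for CMC2 and RIM1 at 48 h, it cannot show a library that stands apart within its set. Mutant groups were not examined in this way.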

How the results depend on the processing

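Of the results with an alternative setting, 635 of 714 for splicing and 331 of 364 for RNA level kept their direction and their side of the threshold, and so did 1728 of 1771 and 1087 of 1127 with 1 library left out. For splicing, 77 of 77 did so with limma on log2 odds and with a higher count minimum or none, 37 of 77 after centring (27 reversed), 28 of 49 with WTb alone, 43 of 49 with WTa alone and 69 of 77 with the strain name as a term. The cause of the changes was not tested.

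The number of the 7 genes called for splicing became 1 with WTb alone for wild type at 48 h against log phase, 2 after centring for mud1D against wild type in log phase, 1 with WTb alone for nam8D in log phase, 6 after centring for the mud1D change minus the wild-type change and 3 with WTb alone for the nam8D one. For nam8D against mud1D at 48 h it was 0 with the strain name as a term, 1 with only the groups compared, and 1 to 3 with 1 library left out. For RNA level in log phase it was 2 in mud1D and 1 in nam8D with WTb alone. Apart from centring, whose shares are given above, the share of all introns or targets called was not counted for these settings. Their counts therefore have no background beside them.

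Centring on the median intron turned the splicing change at 48 h to -0.25 for CMC4 and -0.50 for RIM1 in mud1D, to -0.72 for ERV1, -0.44 for CMC4, -0.27 for RIM1 and -0.99 for YML6 in nam8D, and to -0.10 for CMC4 and -0.12 for MRPL44 in wild type. Against wild type it turned CMC2 to -0.20 and RIM1 to -0.17 in mud1D in log phase, YML6 to -0.20 and IAI11 to -0.29 in mud1D at 48 h, and ERV1 to -0.0295, CMC2 to -0.70, YML6 to -0.29 and IAI11 to -0.58 in nam8D at 48 h. For nam8D against mud1D in log phase it gave 0.23 for CMC2 and 0.19 for MRPL44. The mutant change minus the wild-type change became -0.44 for ERV1, -0.15 for CMC4, -0.44 for YML6 and -0.34 for IAI11 in mud1D, and -0.16 for ERV1, -0.73 for CMC2, -0.34 for CMC4, -0.12 for YML6 and -0.29 for IAI11 in nam8D.

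WTa alone turned CMC2 splicing to 0.50 for mud1D at 48 h and its change minus that of wild type to 0.23. WTb alone gave -0.0824 for MRPL44 in wild type at 48 h against log phase, 0.22 for YML6 in nam8D in log phase, -0.38 for CMC2 in nam8D at 48 h, differences of -0.16 for ERV1, -0.30 for YML6 and -0.0596 for IAI11 in mud1D, and -0.43 for CMC2 in nam8D.

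For RNA level, library totals gave 0.0892 for RIM1 in mud1D at 48 h against log phase. In log phase against wild type, IAI11 in mud1D was -0.0123 with library totals, -0.0210 with RLE factors and with DESeq2 and -0.0079 with no filter, and YML6 in nam8D was 0.0003 with library totals, 0.0021 with the replicate block and 0.0373 with WTb alone. Mature counts alone gave -0.0158 for CMC2, -0.54 for CMC4 and -0.14 for IAI11 in mud1D and -0.0433 for CMC2 and -0.24 for CMC4 in nam8D in log phase, and -0.57 for CMC4 in mud1D at 48 h. WTa alone gave -0.18 for CMC2 and -0.12 for IAI11 in mud1D and -0.23 and -0.0260 in nam8D in log phase, and -0.0271 and -0.0134 in nam8D at 48 h.

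With 1 library left out, splicing ran from -0.0245 to 0.25 for CMC2 in nam8D in log phase, from -0.19 to 0.0423 for CMC2 and -0.26 to 0.0352 for MRPL44 in mud1D at 48 h, from -0.24 to 0.0384 for CMC2 and -0.29 to 0.0317 for MRPL44 between the mutants in log phase, and from -0.27 to 0.0225 for MRPL44 between them at 48 h. The differences from the wild-type change ran from -0.0361 to 0.11 for ERV1 and -0.0901 to 0.22 for YML6 in mud1D and from -0.0523 to 0.23 for CMC2 in nam8D. RNA level ran from -0.0758 to 0.0891 for IAI11 in mud1D in log phase, from -0.0248 to 0.0704 for CMC2 and -0.0699 to 0.0180 for YML6 in nam8D in log phase, and from -0.0211 to 0.31 for CMC2 and -0.0953 to 0.11 for IAI11 in nam8D at 48 h. Where 1 library of WTa in log phase is left out, the lone other is assumed to vary like the other groups.

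The replicate numbers did not pair the libraries: of 39 same-numbered pairs 9 correlated above 0.1 (r from -0.26 to 0.23), and 0 of 14 pairs of groups did so in full. With the replicate number as a block, CMC4 in wild type at 48 h passed the threshold (0.18, adjusted p = 0.0462), and no other splicing call and no level call changed. The lowest premature count was 39, for YML6.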
